A study of Homo sapiens with 9 samples.

Results

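Transcripts of 10 genes of the gp130, JAK and STAT pathway were followed through 9 RNA-seq libraries of A549, a human line derived from lung adenocarcinoma. The genes were found by their symbols in the count table and made up 10 of the 26364 gene names counted. They were the receptors *IL6ST*, *IL6R*, *OSMR* and *LIFR*, the kinases *JAK1*, *JAK2* and *TYK2*, the transcription factors *STAT3* and *STAT5B*, and the inhibitor *SOCS3*. The control group held 2 libraries of A549 cells whose genotype is given as WT. The *LA* group held 2 libraries of A549 cells carrying guides against *LOC388942* and *ALK* (sgLOC388942; sgALK), which joined an intergenic region to *ALK* in the *LOC388942-ALK* (*LA*) fusion. The other groups carried the same fusion guides together with a scramble guide (sgScr, 3 libraries) or with guides against *FOS* (sg*FOS*, 2 libraries). The paper's methods describe single-cell cloning of Cas9-expressing A549 cells with the fusion, so the *LA* line may stand for 1 clone, and the sgScr and sg*FOS* cells share its fusion guides. All cells were grown in RPMI medium with fetal bovine serum. The labels name neither the *FOS* guide in each library nor what separated the *LA* and control libraries from the sgScr and sg*FOS* libraries. Nothing says that replicates came from separate cultures, so p-values measure the spread between these libraries, which may be technical.

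Cytokines of the interleukin 6 family bind a receptor chain of their own and then gp130, the signalling chain encoded by *IL6ST*. JAK kinases sit on the tails of these receptors, phosphorylate them, and so recruit STAT3, which is phosphorylated, pairs up and moves to the nucleus. *SOCS3* is a STAT3 target whose protein binds gp130 and the JAKs and dampens the signal. In lung adenocarcinoma this pathway is known for the response to interleukin 6 and as a branch below ALK and other tyrosine kinases. RNA counts report transcript levels and say nothing of phosphorylation. In bulk RNA, fewer cells with a transcript and less transcript per cell cannot be told apart.

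The motifs that STAT dimers and AP-1 (FOS with JUN) bind were looked for in the promoters of these genes, because the genes include STAT targets and *FOS* was edited in one of the groups. RefSeq windows on GRCh38.p14, from 250 bases before to 50 bases after each annotated start, were searched on both strands for TTCNNNGAA (STAT) and TGANTCA (AP-1). Both motifs read the same on either strand. All 10 genes had at least 1 window, 18 in all. The STAT motif was in 2 of these 18 windows, both of *LIFR*, and in 7.66% of all 35116 windows. The AP-1 motif was in 2 of the 18, those of *OSMR* and *IL6R*, and in 7.71% of all windows. The matches lie at chr5:38595536-38595596 and chr5:38557615-38557675 (minus strand) for *LIFR*, at chr5:38846004-38846032 (plus strand) for *OSMR* and at chr1:154405369-154405392 (plus strand) for *IL6R*, with the motif in capitals and no STAT match overlapping an AP-1 match.
LIFR, STAT motif: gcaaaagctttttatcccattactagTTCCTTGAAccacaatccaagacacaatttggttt
LIFR, STAT motif at another start: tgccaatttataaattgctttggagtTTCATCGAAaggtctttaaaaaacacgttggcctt
OSMR, AP-1 motif: tgccccgcagcTGATTCAtagccccggcc
IL6R, AP-1 motif: gtccgccgctcTGAGTCAtgtgcg
The *LIFR* motifs span bases -165 to -157 and -182 to -174 from their starts, the *OSMR* motif bases 3 to 9 and the *IL6R* motif bases 37 to 43, with the start base counted as 0. The windows of *SOCS3* and *STAT3* held neither spelling. A match is a run of letters, and no binding was measured in these libraries.

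Library totals ranged from 14507228 to 20456341 counts. *FOS*, the gene targeted in the sg*FOS* cells, had 167 and 155 counts in control, 5448 and 1660 in *LA*, 3528 to 4198 in sgScr, and 1008 and 1113 in sg*FOS*. *ALK* had 0 counts in both control libraries (which allows up to 3 counts each), 2 and 15 in *LA*, 1 to 4 in sgScr, and 2 and 0 in sg*FOS*. All 6 epithelial markers (*EPCAM*, *KRT7*, *KRT8*, *KRT18*, *KRT19*, *CDH1*) were counted in all 9 libraries. They summed to 13562.8 to 23978.6 counts per 1000000 (CPM, TMM-normalized) in control, 7888.0 to 12790.2 in *LA*, 7030.8 to 7478.9 in sgScr and 8301.8 to 8539.8 in sg*FOS*. The sum was nearly all keratin, and *CDH1* differed in the other direction, with 287 and 372 counts in control, 1611 and 1816 in *LA* and 1199 to 1489 in sgScr. *EPCAM* had 87 and 133 counts in control, 49 and 84 in *LA* and 165 to 275 in sgScr. The 4 NRF2-type genes that A549 cells carry at high levels summed to between 13248.8 and 19236.0 CPM. The blood markers *PTPRC* and *CD3E* were at 0 in all libraries, and the blood sum of 23.6 to 47.0 CPM was nearly all *CD68*. The 5 fibroblast markers summed to 6.61 to 17.2 CPM, nearly all of it *COL1A1* (111 to 271 counts). *LUM* had 0 to 12 counts, and *COL1A2* and *DCN* were at or below 2 counts. The 3 endothelial markers summed to at most 1.05 CPM. The part of these differences between epithelial markers in the results below was not tested.

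Control A549 cells carried transcripts of all 10 genes. Levels were compared between genes per length of transcript, as counts per kilobase scaled to a sum of 1000000 (TPM). These TPM values were not TMM-normalized and serve to order genes within a group. Differences between groups are given below in CPM with their tests. *JAK1*, the kinase shared by most cytokine receptors of this family, was highest in control cells at 53.8 ± 31.1 TPM (SD, n = 2), followed by *STAT3* at 45.7 ± 18.4 TPM. *OSMR*, which pairs with gp130 to bind oncostatin M, was at 22.3 TPM, *TYK2* at 18.6, *IL6ST* at 14.5 and *STAT5B* at 14. *SOCS3* stood at 8.47 TPM and *IL6R*, the chain that binds interleukin 6 itself, at 2.33. *JAK2* (1.64 TPM) and *LIFR*, the receptor for leukaemia inhibitory factor (1.28 TPM), were lowest. In control, only the step from *SOCS3* to *IL6R* separated neighbours whose replicate ranges did not overlap.

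The order was much alike within the fusion groups. *STAT3* and *JAK1* led in each, at 178 and 176 TPM in *LA* (ranges overlapping), 130 and 141 TPM in sgScr, and 165 and 155 TPM in sg*FOS*. *OSMR* (81.1 to 95 TPM) and *IL6ST* (68.8 to 88.5 TPM) came next in all 3 groups and did not overlap with each other in any. *SOCS3* followed at 43.9 to 53.2 TPM. In *LA* its range (36.9 to 69.5 TPM) overlapped those of *TYK2* (37.3 to 49.2 TPM) and *STAT5B* (35.0 to 48.8 TPM). *STAT5B* and *TYK2* overlapped with each other in every fusion group. *IL6R*, *JAK2* and *LIFR* stayed lowest, at 5.16 to 11.1 TPM. The receptor transcripts were made up of mostly *OSMR* and *IL6ST* and few of *IL6R* and *LIFR* in each fusion group, as they were in control.

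The comparison of *LA* with control asks how the fusion cells differ from their parent line. All 10 log2 fold changes were above 0, and 5 genes rose by the edgeR quasi-likelihood test with Benjamini-Hochberg adjustment over all 14425 genes tested. The 5 were the gp130 chain *IL6ST*, its partners *OSMR* and *LIFR*, the kinase *JAK2* and the inhibitor *SOCS3*. Over all genes tested, 9.57% were called higher and 9.94% lower. In 9 of the 10 genes, all but *TYK2*, both *LA* libraries lay above both control libraries in CPM, against 34.0% of all genes tested. The median log2 fold change of the 10 genes was 1.23, and that of all genes was 0.04. The median ratio of the higher to the lower replicate over the 10 genes was 1.68 in control, 1.33 in *LA*, 1.06 in sgScr and 1.03 in sg*FOS*, so the control and *LA* values carry the larger error.

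Among the receptors, *IL6ST* had 46.9 and 106 CPM in control and 301 and 264 CPM in *LA* (747, 1806, 4889 and 4777 counts). Both *LA* libraries stood well above both control libraries, and the control libraries themselves were far apart. Its log2 fold change was 1.84 (SE 0.44, adjusted p = 0.00606), or 3.58-fold. *OSMR* had 45.4 and 99.0 CPM in control against 187 and 184 CPM in *LA*, a log2 fold change of 1.32 (SE 0.43, adjusted p = 0.0322). *LIFR* had 4.78 and 11 CPM against 20.1 and 32.5 CPM, a log2 fold change of 1.70 (SE 0.49, adjusted p = 0.0174). In these 3 receptor genes control replicate 2 was 2.18 to 2.3 times control replicate 1, while no control library reached an *LA* library. *IL6R* had 6.41 and 9.79 CPM in control and 11.5 and 16.3 CPM in *LA*, with a log2 fold change of 0.74 (SE 0.48) that did not pass the test (adjusted p = 0.283).

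Among the kinases, *JAK2*, which serves gp130 and many haematopoietic receptors, had 62 and 161 counts in control and 425 and 522 in *LA*. In CPM these were 3.9 and 9.49 against 26.2 and 28.8, the largest log2 fold change of the 10 genes at 2.0 (SE 0.49, adjusted p = 0.00655). *JAK1* had 122 and 205 CPM in control and 332 and 301 CPM in *LA*, and its log2 fold change of 0.91 (SE 0.41) did not pass (adjusted p = 0.121). *TYK2* had 64.4 and 38.4 CPM in control against 56.4 and 73.2 CPM in *LA*. Its groups overlapped in CPM, and its log2 fold change was 0.30 (SE 0.41, adjusted p = 0.647). In TPM, which was not TMM-normalized, *TYK2* had 20.1 and 17.0 in control and 37.3 and 49.2 in *LA*, without overlap.

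*STAT3* had 122 and 154 CPM in control and 227 and 393 CPM in *LA*. Both *LA* libraries were above control but differed from each other by more than the nearer of them differed from control. The log2 fold change of 1.13 (SE 0.42, 2.19-fold) missed the threshold with edgeR (adjusted p = 0.0591) and passed it with DESeq2 (adjusted p = 0.0316), and over all 13 alternative analyses its adjusted p ranged from 0.00484 to 0.663. *STAT5B*, which carries growth hormone and cytokine signals, had 39.3 and 47.9 CPM in control and 63.4 and 86.9 CPM in *LA*, a log2 fold change of 0.74 (SE 0.40, adjusted p = 0.189). *SOCS3* had 209 and 261 counts in control and 1098 and 642 in *LA*. These were 13.1 and 15.4 CPM against 67.6 and 35.4 CPM, a log2 fold change of 1.82 (SE 0.45, adjusted p = 0.00697), or 3.52-fold.

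**Figure D1:**
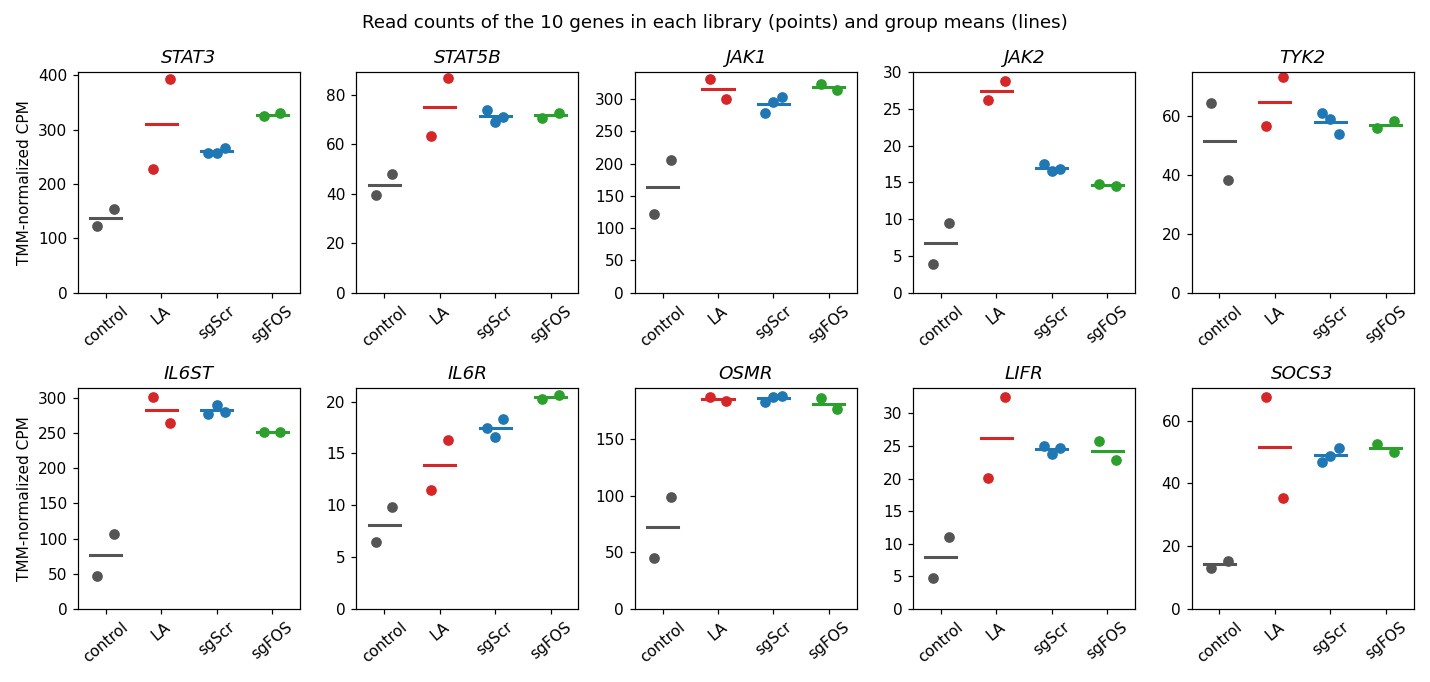
TMM-normalized CPM (y axis, linear from 0) of each gene in the 9 libraries, by group (x axis). Points are libraries and lines are group means. In 9 genes, all but *TYK2*, the 2 *LA* and the 3 sgScr libraries lie above both control libraries, and *JAK2* is also lower in sgScr than in *LA*.

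These calls rest on few libraries. Leaving out any 1 library left 1 in its group, so only log2 fold changes are given here for those fits. They ranged from 1.466 to 2.696 for *JAK2*, 1.34 to 2.468 for *IL6ST* and 1.252 to 2.223 for *SOCS3*. For *OSMR* they ranged from 0.84 to 1.911 and for *LIFR* from 1.195 to 2.339. No gene of the 10 was called in every one of these fits. The number called changed with the library left out, among the 10 genes and among all genes tested.

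Fold changes of all genes rose with transcript length in this comparison (Spearman's rho = 0.59 across 13840 genes, which are not independent replicates). The median log2 fold change went from -1.32 in the shortest of 10 equal length classes to 1.06 in the longest. Of the 10 genes only *SOCS3* (2734 bp) had a transcript shorter than the median of 3211 bp. The other 9 ranged from 4243 bp for *TYK2* to 10553 bp for *LIFR*. Set against genes of the same length class, the log2 fold change of *SOCS3* exceeded that of 97.8% of them, that of *JAK2* 94.1%, *OSMR* 85.5%, *IL6ST* 83.3%, *LIFR* 79.8%, *STAT3* 79.6%, *JAK1* 69.7%, *STAT5B* 61.2%, *IL6R* 49.3% and *TYK2* 46.7%. After an adjustment of each library for length and GC content, 3 of these genes were called. *SOCS3* had an adjusted log2 fold change of 2.11 (SE 0.41, adjusted p = 0.012), *JAK2* of 1.24 (SE 0.32, adjusted p = 0.0359) and *IL6ST* of 0.93 (SE 0.24, adjusted p = 0.0374). *OSMR* (0.70, adjusted p = 0.128), *LIFR* (0.72, adjusted p = 0.231) and *STAT3* (0.60, adjusted p = 0.191) did not pass. With the adjustment 5.34% of genes were called higher, and the median log2 fold change of the 10 genes was 0.65. What gave the length trend was not tested.

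The sgScr cells give a further set of fusion libraries against the same 2 control libraries, and the 2 comparisons are therefore not independent. All of the 10 genes but *TYK2*, 9 in number, were called higher in sgScr than in control, where 19.8% of 14482 genes tested were called higher and 21.7% lower. The same 9 had all 3 sgScr libraries above both control libraries, against 36.9% of all genes. The median log2 fold change of the 10 genes was 1.20, against 0.02 for all genes. *IL6ST* (277, 290 and 280 CPM in sgScr) had the largest log2 fold change, 1.85 (SE 0.36, adjusted p = 0.0123). *SOCS3* (46.9, 48.6 and 51.4 CPM) had 1.76 (SE 0.17, adjusted p = 0.00432). *LIFR* (23.7 to 25 CPM) had 1.61 (SE 0.35, adjusted p = 0.0173) and *OSMR* (183 to 188 CPM) had 1.34 (SE 0.33, adjusted p = 0.0246).

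In the same comparison *JAK2* (16.5 to 17.5 CPM) had a log2 fold change of 1.31 (SE 0.37, adjusted p = 0.0349) and *IL6R* (16.6 to 18.3 CPM) of 1.08 (SE 0.23, adjusted p = 0.0158). *STAT3* had 258, 257 and 266 CPM in sgScr, a log2 fold change of 0.89 (SE 0.16, adjusted p = 0.0107). *JAK1* (278 to 303 CPM) had 0.81 (SE 0.24, adjusted p = 0.041) and *STAT5B* (69.2 to 74.0 CPM) had 0.69 (SE 0.16, adjusted p = 0.0188). *TYK2* (53.9 to 60.9 CPM) lay between the 2 control libraries, at 0.15 (SE 0.24, adjusted p = 0.634).

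Leaving out any 1 of the 3 sgScr libraries ended all 9 calls by edgeR. The lowest adjusted p of the 10 genes was 0.05 without sgScr replicate 1, 0.0523 without replicate 2 and 0.0541 without replicate 3. In these fits 9, 9 and 8 of the 10 genes had an unadjusted p under 0.05. Few genes were called at all there, 130, 3 and 3 of all genes tested. Leaving out either control library left 1 control library, and every log2 fold change but that of *TYK2* stayed positive. *TYK2* was at 0.58 without control replicate 1 and at -0.19 without control replicate 2. Fold changes rose with transcript length here too (Spearman's rho = 0.614 across 13867 genes), with a median of -1.08 in the shortest length class and 0.99 in the longest. After adjustment for length and GC content, 6 genes were called higher, where 19.2% of all genes were. They were *SOCS3* (2.08, adjusted p = 0.0021), *IL6ST* (0.96, adjusted p = 0.00322), *OSMR* (0.73, adjusted p = 0.032), *LIFR* (0.61, adjusted p = 0.0236), *JAK2* (0.54, adjusted p = 0.0446) and *STAT3* (0.41, adjusted p = 0.0216). The median adjusted log2 fold change of the 10 genes was 0.52.

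**Figure D2:**
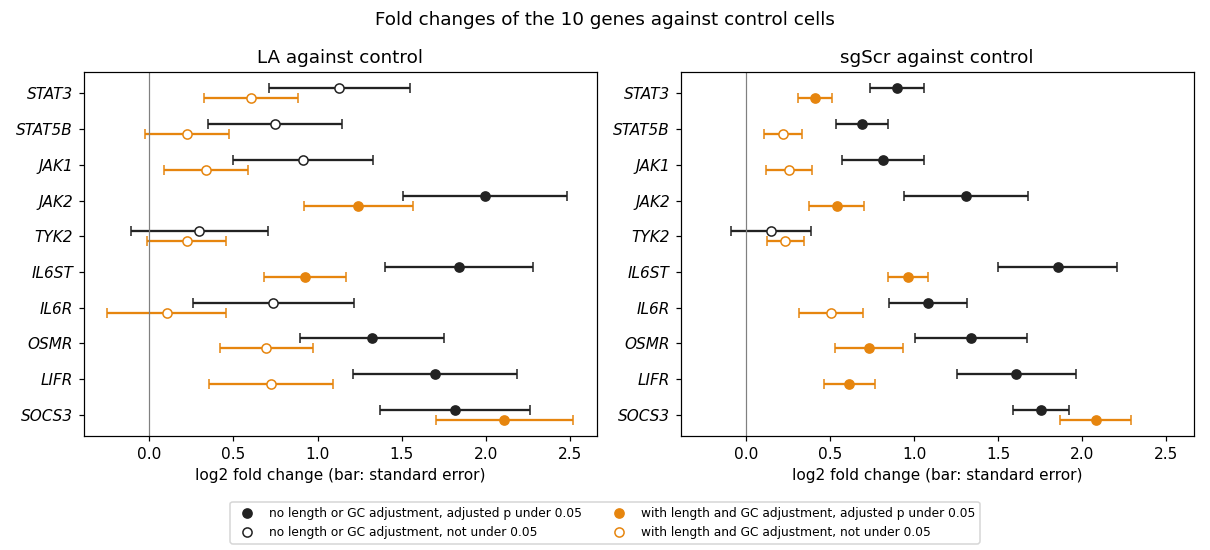
Log2 fold change of the 10 genes (x axis, bars are standard errors) in *LA* and in sgScr against control, without (black) and with (orange) the adjustment for length and GC content. Filled points passed an adjusted p under 0.05. The adjustment lowers every value but that of *SOCS3* in both panels and that of *TYK2* in sgScr, and *SOCS3* is then the largest at 2.11 and 2.08.

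The fusion groups themselves were compared through sgScr against *LA*, which differ by the scramble guide and by whatever else set the 2 sets of libraries apart, which cannot be told apart. Only *JAK2* was called among the 10 genes, lower in sgScr. It had 26.2 and 28.8 CPM in *LA* and 17.5, 16.5 and 16.8 CPM in sgScr, so that the groups did not overlap, with a log2 fold change of -0.74 (SE 0.11, adjusted p = 0.00884). Among 14521 genes tested, 10.6% were called higher and 12.3% lower. The call was lost (0 genes) without any 1 of the sgScr libraries (lowest adjusted p 0.0599 to 0.0726). Of all genes tested, 532, 455 and 389 were called without sgScr replicates 1, 2 and 3. In each of those fits *JAK2* alone had an unadjusted p under 0.05. Without LA replicates 1 and 2, which left 1 *LA* library, the log2 fold change of *JAK2* was -0.80 and -0.66. *STAT3* had a log2 fold change of -0.30 (SE 0.22, adjusted p = 0.369), with the sgScr libraries between the 2 *LA* libraries. That value was 0.17 without LA replicate 2 and -0.63 without LA replicate 1. *SOCS3* likewise lay between the *LA* libraries (-0.11, SE 0.25, adjusted p = 0.772). It was at 0.43 without LA replicate 1 and at -0.495 without LA replicate 2. *IL6ST* (-0.04, SE 0.09) and *OSMR* (-0.04, SE 0.08) had the smallest differences.

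The comparison of sg*FOS* with sgScr asks what guides against *FOS* changed in fusion cells. *STAT3* rose, *JAK1* and *IL6R* rose by less, and *IL6ST* fell. The call of *IL6R* depended on the analysis used. Among 14196 genes tested, 12.2% were called higher and 10.5% lower, so 3 and 1 of the 10 genes stand beside those shares. The median log2 fold change of the 10 genes was 0.01. All 5 libraries of this comparison were close within their groups, and all the changes were small, the largest being 1.27-fold.

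*STAT3* had 258, 257 and 266 CPM in sgScr and 326 and 330 CPM in sg*FOS*, with no overlap. Its log2 fold change was 0.35 (SE 0.035, adjusted p = 5.47e-10), and 12 of 13 alternative analyses called it. The exception was the fit over all 9 libraries, in which edgeR called no gene in this comparison (444 of 14849 genes, and 0 of the 10, had an unadjusted p under 0.05). *JAK1* had 278, 296 and 303 CPM against 324 and 314 CPM, a log2 fold change of 0.14 (SE 0.037, adjusted p = 0.00455). *IL6R* had 17.5, 16.6 and 18.3 CPM against 20.3 and 20.6 CPM, a log2 fold change of 0.24 (SE 0.09, adjusted p = 0.0466). This call was lost with DESeq2 (adjusted p = 0.187), and 5 of 13 alternative analyses called *IL6R*. *IL6ST* had 277, 290 and 280 CPM against 251 and 252 CPM, a log2 fold change of -0.15 (SE 0.036, adjusted p = 0.00146). After the length and GC adjustment *STAT3* (0.33, adjusted p = 1.08e-11) and *JAK1* (0.14, adjusted p = 0.00118) were still called, while *IL6R* (0.21, adjusted p = 0.0915) and *IL6ST* (-0.08, adjusted p = 0.0983) were not. Without sgFOS replicate 1 *STAT3* and *IL6ST* were called and *JAK1* was not (adjusted p = 0.109).

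The other 6 genes were not called between sg*FOS* and sgScr. *JAK2* had 14.8 and 14.5 CPM in sg*FOS*, below all 3 sgScr libraries, with a log2 fold change of -0.19 (SE 0.098, adjusted p = 0.159). *SOCS3* had 52.6 and 49.9 CPM against 46.9 to 51.4 CPM in sgScr, a log2 fold change of 0.08 (SE 0.058, adjusted p = 0.343). *OSMR* and *LIFR* had log2 fold changes of -0.02 (SE 0.038) and -0.003 (SE 0.081). *STAT5B* was at 0.02 (SE 0.049) and *TYK2* at -0.01 (SE 0.056).

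**Figure D3:**
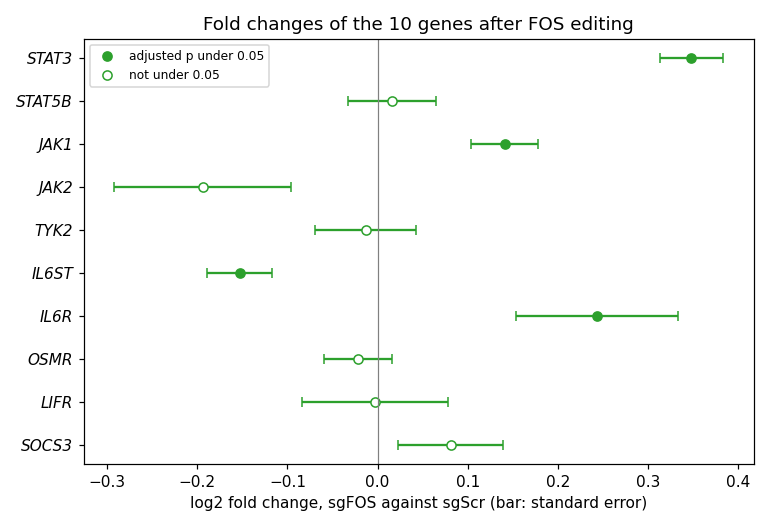
Log2 fold change of the 10 genes in sg*FOS* against sgScr (x axis), with standard errors as bars. Filled points passed an adjusted p under 0.05 by edgeR. *STAT3* stands farthest from 0 at 0.35, and *IL6ST* is the filled point below 0, at -0.15.

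The make-up of the kinase and receptor transcripts also differed between the groups in some measures and overlapped in others. *JAK2* was 1.4% and 2.67% of the summed TPM of *JAK1*, *JAK2* and *TYK2* in control, 4.53% and 5.1% in *LA*, 3.15% to 3.48% in sgScr, and 2.66% and 2.68% in sg*FOS*. No *LA* or sgScr library overlapped with control in this share, and the sg*FOS* libraries lay below sgScr and at the level of control replicate 2. The ratio of *IL6ST* to *IL6R* was 4.68 and 6.95 in control, 10.3 and 16.8 in *LA*, 9.77 to 11.1 in sgScr, and 7.79 and 7.9 in sg*FOS*. The ratio of *STAT3* to *STAT5B* was 3.19 and 3.31 in control, 3.69 and 4.67 in *LA*, 3.6 to 3.86 in sgScr, and 4.68 and 4.78 in sg*FOS*. It was thus higher in every fusion library than in control. The ratio of *IL6ST* to *OSMR* was 0.633 and 0.658 in control, 0.876 and 0.985 in *LA*, 0.912 to 0.95 in sgScr, and 0.827 and 0.872 in sg*FOS*, again higher in every fusion library. Genes in a ratio differ in length, so the length trend touches these values too.

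Beside the 10 genes, 83 other genes of the pathway were counted by role. In *LA* against control 66 passed the expression filter, of which 12 were called higher and 4 lower (7 and 1 after the length and GC adjustment), with a median log2 fold change of 0.40. Over all genes 9.57% were called higher, 9.94% lower, and 5.34% higher after the adjustment. Of 7 ligands tested 2 rose. *IL11*, a ligand that signals through gp130, had 53 and 39 counts in control and 209 and 388 in *LA* (log2 fold change 2.57, SE 0.52, adjusted p = 0.00241). *IL6*, named after its values were seen, had 7 and 1 counts in control, 30 and 75 in *LA* (adjusted p = 0.00927), 1 to 3 in sgScr, and 1 and 5 in sg*FOS*. Of 11 receptors 1 was called, *IL31RA*, a partner of *OSMR* in the receptor for interleukin 31, with 4 counts in each control library and 49 and 90 in *LA* (adjusted p = 0.00257). Of the 6 other kinases and STATs 0 were called by edgeR and 1 had an unadjusted p under 0.05. Of 17 genes listed as negative regulators, a label that may not cover all that each gene does, 4 rose. They were *PTPN11* (1.43), *SOCS5* (1.28), *SOCS7* (1.65, SE 0.42, adjusted p = 0.00906) and *CBL*, a ubiquitin ligase of activated receptors (1.63, SE 0.42, adjusted p = 0.00933). The phosphatase gene *PTPN6* fell (-1.24, SE 0.42, adjusted p = 0.0396). After the adjustment edgeR called 0 of the 17, and 6 had an unadjusted p under 0.05.

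Of 25 STAT target genes tested in *LA*, 5 were called higher and 3 lower. *FOS* rose by 4.41 (SE 0.54, adjusted p = 2.01e-05), and *MCL1* (1.27) was also called higher. *ZFP36* (1.87) and the fibrinogen chain *FGB* (1.83) were called higher although only LA replicate 1 lay above both control libraries. *ZFP36* had 21.9 and 27.1 CPM in control against 165 and 17.7 in *LA*, and *FGB* had 22.1 and 36.4 CPM against 189 and 24.5. *HIF1A*, a subunit of the hypoxia factor, was called at 3.37 (SE 0.76, adjusted p = 0.00419) but had 107 and 2581 counts in the control libraries. *TIMP1*, a metalloproteinase inhibitor (-1.83, SE 0.46, adjusted p = 0.00758), and the fibrinogen chain *FGG* (-1.82, SE 0.60, adjusted p = 0.0349) fell, as did *BIRC5* (-1.25), and the first 2 did not pass after the adjustment (adjusted p = 0.558 and 0.0877).

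In sgScr against control 17 of 63 pathway genes were called higher and 9 lower (21 and 7 after the adjustment), where 19.8% of all genes were called higher, 21.7% lower, and 19.2% higher after the adjustment. The gp130 ligand *LIF* rose (0.94, SE 0.19, adjusted p = 0.0131), with 923 and 1214 counts in control and 2096 to 2762 in sgScr, while *CLCF1* (-0.62) and *EBI3* (-1.19) were called lower only without the adjustment. The leptin receptor *LEPR* (1.47, adjusted p = 0.0246) and *IL4R* (0.83, adjusted p = 0.0167) rose. Of 16 genes listed as negative regulators 5 rose, *CBL* (2.03), *SOCS7* (1.94), *PTPN11* (1.47), *PTPN1* (0.97) and *SOCS6* (0.94). Of 25 targets 8 rose, led by *FOS* (4.34) and *FGB* (2.03), and 7 fell, led by *TIMP1* (-2.15) and *SERPINA3* (-1.84). After the adjustment 11 targets were called higher and 4 lower, and *TIMP1* was at -0.77.

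In sgScr against *LA* 4 of 67 pathway genes were called higher and 16 lower (10 and 21 after the adjustment), beside 10.6% and 12.3% of all genes. Of 7 ligands 5 were lower in sgScr and none higher, with *IL11* at -2.27 (SE 0.26, adjusted p = 0.00456) and *EBI3* at -1.42 (SE 0.31, adjusted p = 0.0262) beside *CLCF1* (-1.32), *CTF1* and *IL6*. Of 11 receptors, *IL27RA* (1.02) and *IFNGR2* (0.59) were higher, and *IFNAR1* (-0.37) and *IL31RA* (-2.12) were lower. *PTPN6* (0.78) was the negative regulator called higher and *SH2B3* (-0.56) and *SOCS1*, with 10 and 64 counts in *LA* and 2 to 8 in sgScr, were called lower. Of 26 targets 7 were lower, led by *HIF1A* (-1.41) and *IRF1* (-0.94), and *CEBPB* (0.91) was higher.

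In sg*FOS* against sgScr 15 of 63 pathway genes were called higher and 12 lower (16 and 15 after the adjustment), beside 12.2% and 10.5% of all genes. Of 5 ligands 3 rose, *CLCF1* (0.32), *IL11* (78, 66 and 70 counts in sgScr, 103 and 129 in sg*FOS*, log2 fold change 1.10, SE 0.17, adjusted p = 4.28e-06) and *EBI3* (1.01, SE 0.21, adjusted p = 0.000447). Of 11 receptors 2 rose, *IL4R* (0.46) and *IFNGR1* (0.30), as did *STAT5A* (0.56, SE 0.12, adjusted p = 0.000784) among the other kinases and STATs. *SOCS5* (0.31) and *SH2B3* (0.28) rose and the phosphatase gene *PTPN2* fell (-0.35). Of 25 targets, among them the edited gene *FOS*, 7 rose and 11 fell. *SERPINA3* (0.76, adjusted p = 6.93e-05) and the adhesion gene *ICAM1* (0.63, adjusted p = 3.35e-08) had the largest rises. *FOS* itself fell by 1.48 on the log2 scale (SE 0.044, adjusted p = 2e-25) and *FGB* by 0.97 (SE 0.046, adjusted p = 5.42e-19), and *FGA* (-0.54) and *FGG* (-0.76), the other fibrinogen chains, were also called lower.

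The genes whose pattern over the 9 libraries was most like each of 3 members were taken among 11900 genes by Pearson's r of log2(CPM + 1), as a description over libraries that share groups and the length trend. *STAT3* was followed most closely by *SORCS2* (r = 0.988), the complement gene *C3* (0.986) and *ABTB2* (0.985), with *C3* at 69.1 and 75.7 CPM in control, 193 and 363 in *LA*, 193 to 201 in sgScr, and 282 and 297 in sg*FOS*. *IL6ST* was followed by *HIPK1*, *WDR47* and *PTPN11*, a phosphatase gene of the same pathway (each r = 0.998), and *SOCS3* by *AP2B1* (0.994), *GAPVD1* (0.993) and *ZNF638* (0.993). Within the 10 genes *IL6ST* and *OSMR* were most alike (r = 0.994), and *TYK2* was least like the others (r from 0.075 to 0.417).

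On GRCh37 the receptor genes *OSMR* (plus strand, 38845960 to 38945698) and *LIFR* (minus strand, 38474770 to 38608456) lie near each other on chromosome 5, with *IL6ST* (minus strand, 55230923 to 55290850) on the same chromosome. *STAT3* (40465342 to 40540558), *STAT5B* (40351194 to 40440651) and *SOCS3* (76352859 to 76356158) lie on the minus strand of chromosome 17. *JAK1* (65298906 to 65533437, minus strand) and *IL6R* (154377669 to 154441926, plus strand) lie on chromosome 1, *JAK2* (4984390 to 5129948, plus strand) on chromosome 9 and *TYK2* (10461209 to 10491284, minus strand) on chromosome 19. Exons of *STAT5B*, *JAK1*, *OSMR* and *LIFR* overlap exons of *STAT5A*, *RAVER2*, *RICTOR* and *LIFR-AS1* on the opposite strand, and *JAK1* also overlaps *LINC01359* (0 to 2 counts) on its own strand. The strand setting of the counting is not given in the sources used here, so reads of these partners may be mixed. *LIFR-AS1* had 5 to 19 counts and *RAVER2* 184 to 569 per library. *RICTOR* had 461 and 747 counts in control and 1562 and 1329 in *LA*, beside 722, 1679, 3037 and 3338 counts of *OSMR*.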

How the data were processed

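For each of 9 libraries the authors deposited unnormalized counts, whole numbers of reads assigned to each gene. Per the paper and the submitters' notes, stranded mRNA libraries were sequenced in 150-bp pairs and aligned to hg19 with STAR 2.7.10b, and DESeq2 1.26.0 was used. What counted the reads, with which gene models and strand setting, is not given in the sources used here. All per-sample columns were used, and groups and replicate numbers came from the sample labels.

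Tests used edgeR 4.0.16 in R 4.3.3 (TMM, filterByExpr, quasi-likelihood test, two-sided), fitting only the libraries compared, with Benjamini-Hochberg adjustment over all genes tested and a threshold of 0.05. All 10 genes passed the filter in each comparison. CPM values were scaled over all 9 libraries. Canonical transcript length and GC content came from GENCODE 44 on GRCh37, where 22494 of 26364 names matched directly and 1291 through an older symbol. Promoters came from RefSeq on GRCh38.p14, and no coordinate was converted. Total counts of 14507228 to 20456341 per library set the depth. A count of 0 was read as allowing 3 counts, for counting error alone, since reads carry no molecular identifiers.

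The 10 genes and the lists were chosen with earlier results of these data known. In each comparison and role, the other pathway genes named were called genes averaging 50 counts or more, up to 2 per direction by size of change. Genes named outside this rule were chosen after their values were seen (such as *IL6*, *IL31RA*, *MCL1* and *FGA*). Each comparison was repeated with DESeq2 1.42.0, with its size factors in edgeR, with library size alone, with no filter, a floor of 50 mean counts, 1 fit over all 9 libraries, a block for replicate number, a loess adjustment (span 0.5) for length and GC content entered as an offset, and leaving out each replicate. The fits were tested on simulated data. Tables were made with Python 3.11.15. Some genes that the naming rule covers are not reported here.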

Additional observations from a re-analysis of the deposited data

How the results depend on the processing

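Each comparison was repeated under 13 alternatives, and the number of the 10 genes called is given first, with all genes called after it. For *LA* against control (5 and 2814) the fit over all 9 libraries gave 9 and 6799, the length and GC adjustment 3 and 1471, and leaving out a library 0 to 7 and 253 to 5078. For sg*FOS* against sgScr (4 and 3221) DESeq2 gave 1956 genes, the adjustment 2 of the 10, and leaving out a library 2 to 4 and 1916 to 3518. The edgeR fit over all 9 libraries gave 0 and 0, with 0 and 444 at an unadjusted p under 0.05. For sgScr against *LA* (1 and 3327) the fit over all 9 libraries gave 0 and 1436 (1 and 4063 unadjusted) and leaving out a library 0 to 7 and 389 to 9926. For sgScr against control (9 and 6009) leaving out a library gave 0 to 10 and 3 to 11715. Where an arm kept 1 library, it was assumed to vary like the other group's.

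Direction changed for *TYK2* without control replicate 2 (-0.112 in *LA* and -0.194 in sgScr against control, up to 0.686 and 0.579 without control replicate 1). In sg*FOS* against sgScr it changed for *LIFR* with the replicate block (0.004), the adjustment (0.066) and without sgScr replicates 1 (0.014) and 3 (0.003) and sgFOS replicate 2 (0.079, with -0.092 the lowest without a library), for *STAT5B* with the adjustment (-0.02) and without sgScr replicate 2 (-0.005) and sgFOS replicate 2 (-0.01, with 0.043 the highest without a library), for *TYK2* without sgScr replicates 1 (0.024) and 2 (0.001) and sgFOS replicate 1 (0.017, with -0.06 the lowest without a library and -0.101 with the adjustment), and for *OSMR* without sgFOS replicate 2 (0.011, with -0.059 the lowest without a library). In sgScr against *LA* it changed without LA replicate 1 for *IL6ST* (0.061) and *SOCS3* (0.429), and without LA replicate 2 for *STAT3* (0.173), *STAT5B* (0.146), *TYK2* (0.013) and *LIFR* (0.254). The values without the other *LA* library were -0.122 for *IL6ST*, -0.495 for *SOCS3*, -0.63 for *STAT3*, -0.317 for *STAT5B*, -0.371 for *TYK2* and -0.445 for *LIFR*. The cause was not tested.

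Replicate numbers are shared between groups in the labels. Deviations of same-numbered libraries from their group means correlated at -0.217 to 0.059. In groups of 2 libraries the deviations mirror each other, so *LA* against control gives only 1 value, -0.217. These correlations cannot show whether libraries of the 2 groups were paired or shared a batch, which the labels do not name. With the replicate block the counts were 4 and 1519 for *LA* against control, 4 and 3150 for sg*FOS* against sgScr, 0 and 1230 for sgScr against *LA* (1 and 3433 at an unadjusted p under 0.05), and 6 and 3480 for sgScr against control. With the 2 *LA* numbers crossed, an alternative chosen after seeing the data, the block gave 5 and 3878. Depth limits *JAK2*, *LIFR* and *IL6R* most, at 62, 76 and 102 counts in their lowest libraries.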
